A study of Mus musculus with 8 samples.

Results

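Oxidative phosphorylation subunit genes encode the parts of the 5 protein complexes with which mitochondria burn fuel with oxygen and make ATP. They were chosen here by name alone, with earlier results of these data known. Every non-control probe whose array gene name fits the Nduf (a, b, c, s and v series), Sdh, Uqcr, Cyc1, Cox4 to Cox8 or Atp5 series was taken. No measured value entered this rule. The rule found 119 of the 41174 probes on the array, which carry 85 of 28146 gene names. Sorted by complex, 35 belong to complex I, 4 to complex II, 9 to complex III, 18 to complex IV and 15 to complex V. The last 4, Cox4nb, Cox7a2l, Atp5s and Atp5sl, carry matching names but are not structural subunits, and are given apart. Ndufa4, named for complex I, is counted with complex IV, where it is now placed. Of the 85 genes, 83 passed the filter on dim probes in each comparison, and Cox7b2 and Cox8c, isoforms known from testis, did not.

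The study asked how a pregnant mouse's liver and the liver of its fetuses respond when the mother is short of food. C57BL/6J females carrying litters either had chow freely (control) or received 50% of the amount that controls ate (food restriction, FR) from gestation day 10 to 17, and livers were taken on gestation day 18. The 4 kinds of RNA were thus liver of control mothers, of FR mothers, of male fetuses of control mothers and of male fetuses of FR mothers. All animals were of this 1 strain, and the labels name no other agent or allele. RNA was pooled within a diet, and each 2-colour array compared 1 pool of each diet directly and was then repeated with the dyes exchanged. Mothers gave 1 pool pair of 6 animals a diet. Fetuses gave 1 pair of pools of 6 and 2 pairs of pools of 3. The 2 arrays of an exchange count as 1 replicate, so n is 3 pool pairs for the fetus and 1 for the mother. How the mothers were divided over the fetal pools is not given in the sources used here, so p-values measure only the spread between these pools, which may share mothers. All ratios below are log2 of FR over control, turned for dye, and a value of 1 is a doubling.

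Electrons enter the chain at complex I (NADH dehydrogenase) or complex II (succinate dehydrogenase), pass through ubiquinone to complex III (cytochrome bc1), then through cytochrome c to complex IV (cytochrome c oxidase), which hands them to oxygen. Complexes I, III and IV pump protons while doing so, and complex V (ATP synthase) uses the return flow to make ATP. Most subunits are encoded in the nucleus and a few in the mitochondrial genome, and in liver the chain also carries the oxidation of fatty acids that fasting increases.

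The arrays covered these genes well: on each of the 8 arrays 114 to 117 of the 119 probes were well above background in both dyes, none was saturated, and 69 of the 83 genes lay in the brightest 10% of all genes. On slide 1, which held the maternal pools and the fetal pools of 6, the image software marked 73.1% to 78.2% of these probes as non-uniform spots, against 11.9% to 19.7% of all probes, and on slide 2 none. The marked spots were kept. Liver identity was checked on 9 hepatocyte markers, whose mean log2 level lay between 15.3 and 15.8 in the control fetal and between 15.6 and 16.2 in the control maternal RNA. The mean of 4 fetal hepatocyte markers lay between 15.4 and 16.0 in control fetuses and between 7.44 and 7.59 in control mothers. Fetal liver also makes blood: 10 erythroid markers had a mean level of up to 14.4 in control fetuses and up to 9.46 in control mothers, and the tissue was measured whole, so fewer cells of a type and less RNA per cell cannot be told apart.

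In fetal liver most of these genes differed little between the diets, and 10 passed the test, 8 of them subunits: Cox6a2, Uqcr10, Atp5l, Cox7a2l, Cox4i1 and Ndufb8 rose, and Atp5j, Atp5sl, Atp5g1 and Ndufs5 fell. These 6 higher and 4 lower genes are 12% of the 83 tested, against 25.6% of all 21115 genes, of which 11.4% were higher (2400) and 14.2% lower (3008) in limma at an adjusted p under 0.05. Among the 69 in the brightest 10% the share was 11.6%, against 36.1% of all genes of that brightness. Fold changes over all 83 ran from 0.796 to 1.36, and 46 genes had a mean within 0.1 of zero on the log2 scale. The median over the members was 0.023 against 0.011 over all genes, and its sign depends on the scaling, since without loess it was -0.11, with 18.1% of members above 0 in place of 55.4%.

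**Figure D1:**
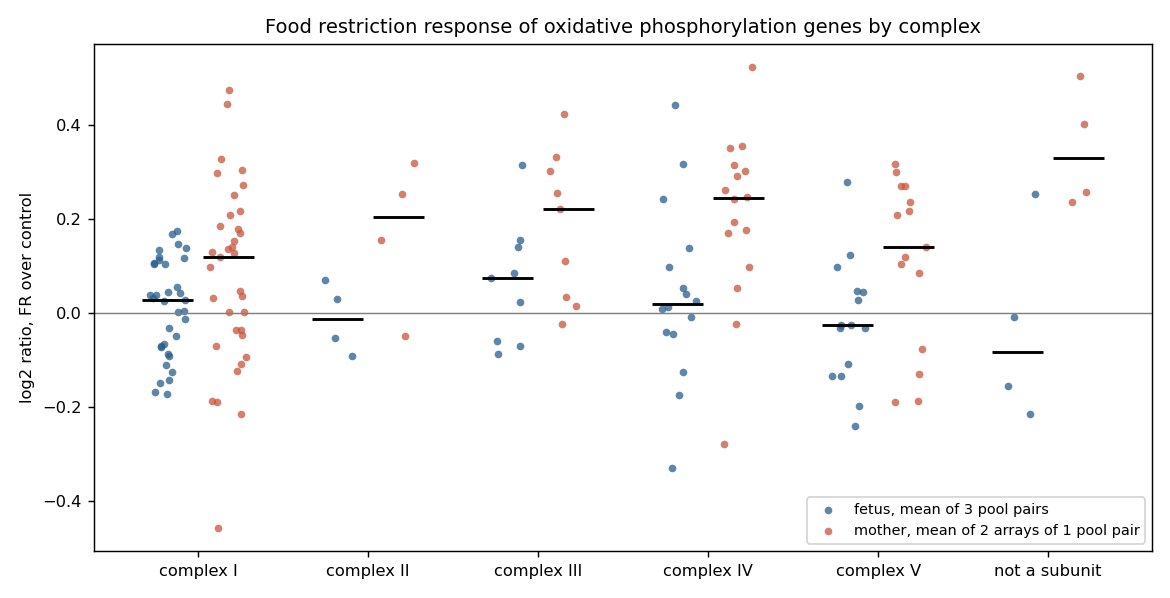
Each point is 1 gene, placed by its complex on the horizontal axis and by its log2 ratio of FR over control on the vertical axis, with fetal means over 3 pool pairs in blue and maternal means over 2 arrays of 1 pool pair in red; black bars are medians. Fetal points lie around 0 in every complex (complex I median 0.027), and most maternal points lie above it (complex IV median 0.24).

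Complex I, the largest, had 1 gene higher and 1 lower among 35 (5.71%, against 25.6% of all genes). Ndufb8, an accessory subunit of the membrane arm, was 0.19 in the pools of 6 and 0.18 and 0.15 in the pools of 3 (mean 0.17 ± 0.024 SD, n = 3, adjusted p = 0.0429). Its other probe lay below 0 in every pair, and the mean over both probes was -0.044. Ndufs5, an accessory subunit, was -0.18, -0.19 and -0.13 (mean -0.17 ± 0.030, adjusted p = 0.0475), but the RefSeq accession of its probe belongs to the pseudogene Ndufs5-ps, so the signal of the copies cannot be separated. All 3 pool pairs lay on the same side of 0 for both genes.

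None of the 7 catalytic core subunits of complex I passed, where 25.6% of all genes did. Ndufv1, which binds NADH, had 0.30, 0.13 and 0.072 (mean 0.17 ± 0.12, adjusted p = 0.106). The first pair was far above the others. Ndufs1, the largest iron-sulfur subunit, had a mean of -0.014 ± 0.058, and the accessory subunit Ndufa9 one of -0.032 ± 0.052, and the pairs of both genes lay on either side of 0.

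Complex II, which is also an enzyme of the citric acid cycle, had no gene past the threshold among 4 (against 25.6% of all genes). The flavoprotein Sdha had 0.18, -0.037 and 0.064, while another of its probes had -0.25, -0.34 and -0.30, so its direction depends on the probe. The iron-sulfur subunit Sdhb had -0.010, 0.040 and 0.057. The membrane anchor Sdhc was lowest at -0.091 ± 0.045 (adjusted p = 0.203).

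In complex III, 1 of 9 genes passed (11.1%, against 25.6% of all genes). Uqcr10, a small subunit, was 0.35 in the pools of 6 and 0.29 and 0.31 in the pools of 3 (mean 0.31 ± 0.030, adjusted p = 0.0113). Its probe lies at chr11:4602056-4602115 in mm9. The subunits that carry the electrons gave no call. The iron-sulfur protein Uqcrfs1 had a mean of 0.023 ± 0.10 and cytochrome c1, Cyc1, one of -0.070 ± 0.022. The core protein Uqcrc1 had 0.25, 0.12 and 0.046 (adjusted p = 0.139).

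Complex IV held the highest and the lowest fetal member, both of them isoforms known from heart and skeletal muscle. Cox6a2 was 0.58 in the pools of 6 and 0.36 and 0.39 in the pools of 3 (mean 0.44 ± 0.12, adjusted p = 0.0111), all 3 pairs above 0. Cox7a1 was -0.61, -0.14 and -0.23 (mean -0.33 ± 0.25, adjusted p = 0.0696), all below 0 but with the pools of 6 far under the others. Of the isoforms that liver mainly uses, Cox6a1 had -0.13 ± 0.094 and Cox7a2 -0.18 ± 0.17, neither past the threshold. The dyes disagreed for Cox6a1, at 0.84, 0.32 and 0.35 with FR in Cy5 and -0.89, -0.61 and -0.77 with FR in Cy3. None of 5 muscle markers passed, and all 5 were highest in the pools of 6 (Myl1 at 1.62, against -0.52 and 0.40), and the mean level of the 5 ran from 7.22 to 7.84 in control and from 7.25 to 8.78 in FR fetal RNA. Their part in the values of Cox6a2 and Cox7a1 was not tested.

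Cox4i1, the common form of the regulatory subunit, also passed, with 0.26, 0.18 and 0.29 (mean 0.24 ± 0.055, adjusted p = 0.0229). Its hypoxia-linked form Cox4i2 had 0.054 ± 0.13. The other core-binding subunits gave no call: Cox5a had -0.046 ± 0.078 and Cox6c, which was -0.0036 in the pools of 6 and 0.31 in the second pair of pools of 3, had 0.14 ± 0.16. In all, 6 of the 11 common forms were above 0 and 5 below.

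Complex V had 1 gene higher and 2 lower among 15 (20%, against 25.6% of all genes). The 5 subunits of the catalytic head gave no call. Atp5l, the membrane subunit g, was 0.24, 0.31 and 0.29 (mean 0.28 ± 0.038, adjusted p = 0.0148). Atp5j, coupling factor 6 of the peripheral stalk, was -0.25, -0.32 and -0.15 (mean -0.24 ± 0.085, adjusted p = 0.0311). Atp5g1, one of 3 genes for the same c-ring protein, was -0.25, -0.17 and -0.18 (mean -0.20 ± 0.042, adjusted p = 0.035), while Atp5g2 had 0.047 ± 0.014 and Atp5g3 -0.026 ± 0.070. No pair of a called gene crossed 0. The head subunits alpha (Atp5a1) and beta (Atp5b) had -0.033 ± 0.026 and -0.026 ± 0.16, and the stalk subunit Atp5o 0.097 ± 0.072. The dyes disagreed for Atp5b, at 1.09, 0.31 and 0.37 with FR in Cy5 and -0.78, -0.55 and -0.60 with FR in Cy3. Its mean near 0 averages these opposite values. In Atp5a1 and Atp5g3 too, every pair was above 0 with FR in Cy5 and below 0 with FR in Cy3.

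Among the 4 genes that only share the name pattern, 1 rose and 1 fell (50%, against 25.6% of all genes). Cox7a2l, which helps complexes III and IV join into supercomplexes, was 0.29, 0.17 and 0.29 (mean 0.25 ± 0.070, adjusted p = 0.024). Atp5sl (now Dmac2) was -0.17, -0.26 and -0.21 (mean -0.21 ± 0.046, adjusted p = 0.0292). Atp5s (now Dmac2l) had -0.16 ± 0.12 with probes that differed by 0.64, and Cox4nb (now Emc8) -0.0092 ± 0.050.

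**Figure D2:**
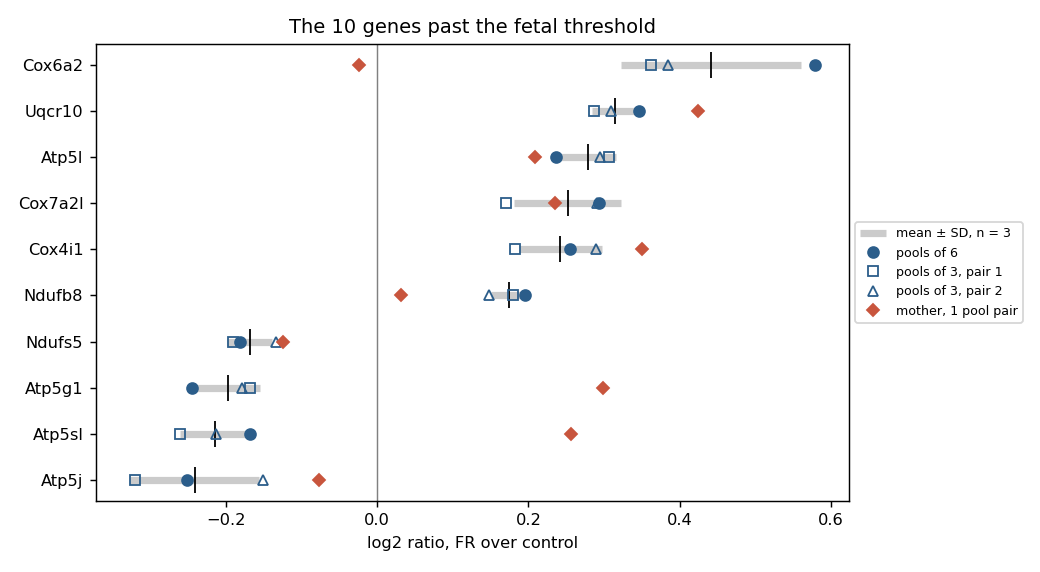
The 10 genes past the fetal threshold are listed by mean, with the log2 ratio of FR over control on the horizontal axis; blue symbols are the 3 pool pairs, grey bars the mean ± SD over them and red diamonds the mother. All 3 pairs fall on the same side of 0 for every gene, and the maternal values of Atp5g1 (0.30), Atp5sl (0.26) and Cox6a2 (-0.024) lie on the other side of 0 from the fetal mean.

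No member passed without the pools of 6 (7 had an unadjusted p under 0.05 in limma, and 0% of all genes were called) or with log ratios scaled between arrays (19 unadjusted, 0% of all genes). Without the first and the second pair of pools of 3, 4 and 5 passed (4.82% and 6.02%, against 12.3% and 24.4% of all genes). With slide as a term 3 passed, Cox6a2, Uqcr10 and Cox7a1 (3.61%, against 10.5% of all genes). Without non-uniform spots 2 passed (2.41% against 13.2%), with the image software's processed signals 3 (3.61% against 27.2%) and without loess 1 (1.2% against 14.1%). Cox6a2 was among those that passed in each of these 4 fits.

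In maternal liver most subunit genes were a little higher with FR, and none reached 1.5-fold on both arrays. The median over 83 genes was 0.17 against 0.0035 over all genes, and 64 of 83 (77.1%) had a mean above 0, against 50.9% of all 19520 genes. By the fold rule 0 of 83 were called, where 3.01% of all genes were higher (587) and 3.87% lower (756) by at least 1.5-fold on both arrays. There is 1 pool a diet, so these values have no replicate and no test. Within the brightest 10% the members' median was 0.16 and that of all genes -0.016. Over the alternatives run, the median stayed above 0, from 0.090 with FR in Cy3 alone to 0.24 over the 15 genes left without non-uniform spots.

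The dye orientations did not give the same picture. With FR in Cy5, 66 of 83 members were above 0 and 7 of them over 1.5-fold. With FR in Cy3, 51 were above 0, 1 was over 1.5-fold and 3 under it. Past 1.5-fold in either direction were 8.43% of members and 11.3% of all genes with FR in Cy5. With FR in Cy3 these shares were 4.82% and 10.8%. Both arrays were above 0 for 44 genes, below for 10 and on opposite sides for 29 (34.9%, against 32.6% of all genes). Of all 19520 genes, 6472 were above 0 on both arrays and 6684 below. With FR in Cy5 the median was 0.20 over members and 0.014 over all genes. With FR in Cy3 these were 0.090 and -0.020. Wide gaps, picked out after their values were seen, included Cox6a1 at 1.36 and -0.73, Atp5b at 1.19 and -0.75, and the hinge protein Uqcrh of complex III at 0.90 and -0.46. The median gap between arrays was 0.22 for the members and 0.15 for all genes, and 0.28 for all genes of the brightest 10%. Hepatocyte markers showed such gaps too, with Alb at 1.08 and -1.08.

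**Figure D3:**
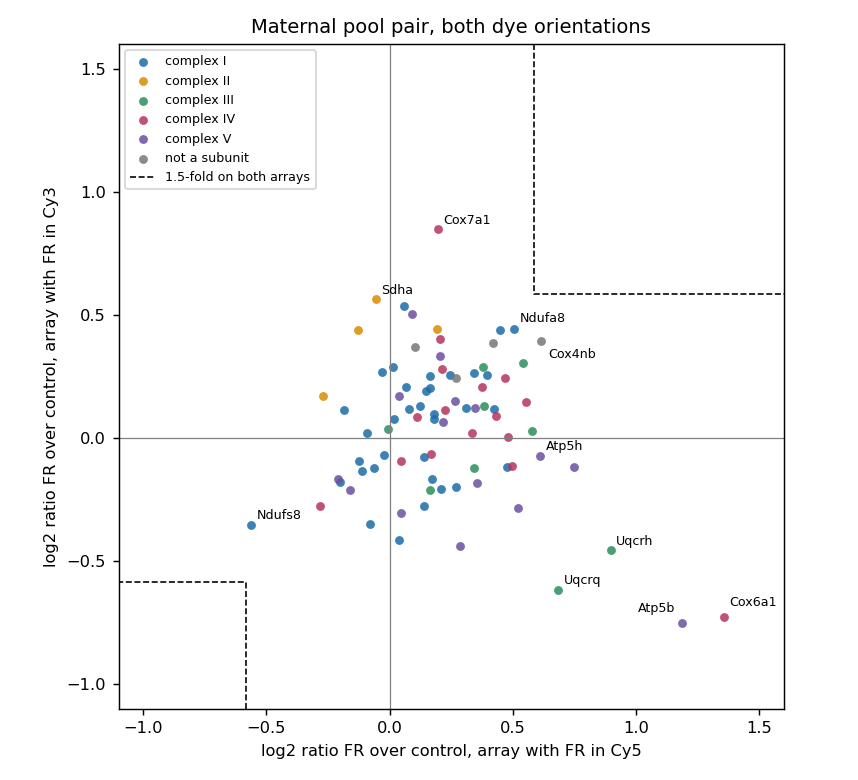
Each point is 1 gene, with its log2 ratio of FR over control on the maternal array with FR in Cy5 on the horizontal axis and on the array with FR in Cy3 on the vertical axis, coloured by complex; dashed corners mark 1.5-fold on both arrays. No point lies in a dashed corner, Cox6a1 and Atp5b lie far to the lower right, and Ndufs8 is the lowest of those below 0 on both arrays (-0.56 and -0.35).

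In complex IV, all 11 common forms had a mean above 0, from 0.17 to 0.36, with a median of 0.26. Of the 11, 11 were above 0 with FR in Cy5 and 9 with FR in Cy3, and none could be measured once non-uniform spots were left out. Cox6c had 0.47 and 0.24, Cox4i1 0.55 and 0.15, and Cox6b1, which sits where the dimer joins, 0.20 and 0.40. Cox5a was nearly flat on the second array, at 0.33 and 0.019. Cox7a1, the muscle form, was the highest member of all at 0.52 (0.20 and 0.85), and another muscle form, Cox8b, was among the lowest at -0.28 and -0.28. With the processed signals Cox8b was -1.24 and past 1.5-fold on both arrays. Its probe was dim, at a mean log2 intensity of 6.75.

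In complex I, 24 of 35 genes had a mean above 0, and 18 were above 0 on both arrays. The accessory subunits Ndufa8 (0.51 and 0.44) and Ndufa12 (0.45 and 0.44) were over a log2 ratio of 0.322 on both arrays. Ndufs8, an iron-sulfur subunit of the core, was the lowest of all members at -0.46 and the only one lower by as much on both arrays, while 6 of 7 core subunits were above 0, among them Ndufs7, the last iron-sulfur subunit before ubiquinone (0.40 and 0.26). Ndufs1 and Ndufv1 had means of 0.14 and 0.15, and Ndufa9 one of 0.0022.

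By mean, 3 of 4, 8 of 9 and 11 of 15 genes of complexes II, III and V were above 0. On both arrays only 1, 4 and 6 of them were. The medians of these complexes were -0.092, 0.38 and 0.27 with FR in Cy5. With FR in Cy3 they were 0.44, 0.026 and -0.12. Sdha had -0.057 and 0.56 and Sdhb -0.13 and 0.44. The other probes of Sdha had maternal means of -0.11 and 0.52, so its direction depends on the probe here too. The membrane anchors Sdhd (0.32) and Sdhc (-0.049) were the highest and lowest of complex II. In complex III, the highest, Uqcr10, was 0.54 and 0.31, Cyc1 0.38 and 0.29, and Uqcrfs1 0.58 and 0.026, while the small subunit Uqcr11 was lowest at -0.024. In complex V, the membrane subunit Atp5j2 was lowest, at -0.19, but its other probe had 0.38, which is also its value without non-uniform spots, and Atp5a1 was highest at 0.32 from 0.75 and -0.12. All 4 pattern matches that are no subunits were above 0 on both arrays, with Cox4nb at 0.61 and 0.39 and Atp5s at 0.42 and 0.39.

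The maternal and fetal responses were compared in 1 limma model that lends the lone maternal pair the spread of the fetal pairs, so each p-value holds only if the maternal pools vary as the fetal ones do. No member passed (0 of 83, lowest adjusted p 0.056, 21 with an unadjusted p under 0.05), where 2.06% of all genes lay above 0 past the threshold (390) and 2.13% below (404). The median difference, maternal minus fetal, was 0.14 over members. Differences were largest for Cox7a1 at 0.85 (adjusted p = 0.0909), Atp5s at 0.56, Cox4nb at 0.51, Atp5g1 at 0.50 and Atp5sl at 0.47. Mother and fetus lay closer on the other probe of Cox4nb (0.14 and 0.11) and of Atp5s (0.63 and 0.48). The other probe of Atp5sl had 0.30 in the mother and -0.058 in the fetus. The lowest were Ndufs8 at -0.49 (adjusted p = 0.08), Cox6a2 at -0.47, Cox8b at -0.38 (-1.89 with processed signals, and past the threshold at an offset of 10), Ndufb7 at -0.31 and Cox6b2 at -0.26. Of these 10, 4 are tissue forms of complex IV, of which 5 were measured among the 83 members. The fetal SD was 0.25 for Cox7a1, 0.24 for Cox6b2, 0.12 for Cox6a2 and 0.055 for Cox8b. Its median over members was 0.070. Beyond them, the highest and lowest by complex were Ndufa12 (0.44) in I, Sdhd (0.37) and Sdhc (0.042) in II, Cyc1 (0.40) and Uqcrq (-0.12) in III and Atp5e (-0.098) as the lowest of V.

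Control levels of mother and fetus were set side by side on slide 1, probe by probe, as log2 normalized intensity. Here 8 members were at least 1.5-fold higher in mothers in both dyes and 3 in fetuses, of 83, against 14.9% and 17.3% of 22731 genes. Again there is 1 pool on each side and no test. The fetal side was led by isoforms: Cox6b2, known from testis, had 12.01 in fetal and 8.59 in maternal liver, a 10.7-fold difference, and Cox7a1 had 10.87 in fetal liver, 3.66-fold over the mother. Ndufs7 was 1.67-fold higher in the fetus. The common forms Cox6b1, Cox7a2 and Cox8a differed by 0.17, -0.46 and -0.47 on the log2 scale, maternal minus fetal.

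Among those higher in mothers were the complex III subunit Uqcrb (2.39-fold), Ndufs8 (2.19-fold), Cox8b (1.92-fold, or 0.94 on the log2 scale, and 2.93 with processed signals), Ndufa11 (1.88-fold), Sdhb (1.86-fold), Ndufa1 (1.63-fold) and Ndufa13 (1.59-fold). The Cox8b probe was dim, with a mean log2 intensity of 6.75, near those of Cox7b2 (6.36) and Cox8c (6.31), which failed the filter. No member of complex V passed that fold in either direction, with differences from -0.47 for Atp5o to 0.43 for Atp5g3. At 2-fold 3 of the 11 remained, Cox6b2, Cox7a1 and Uqcrb (3.61% of members, against 17.6% of all genes).

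**Figure D4:**
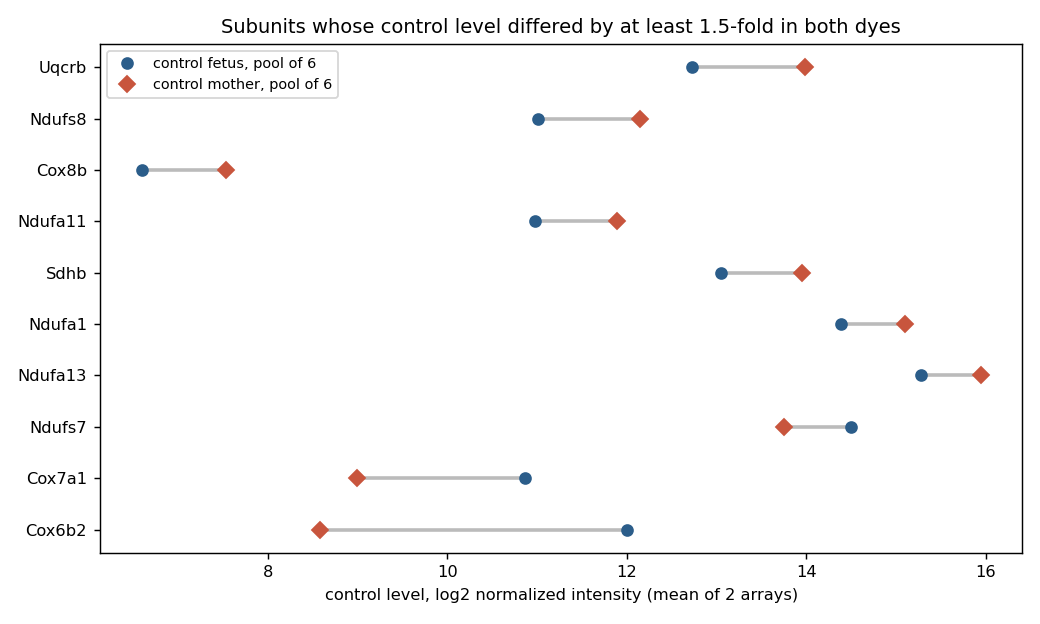
Shown are 10 of the 11 subunits whose control level differed by at least 1.5-fold in both dyes, with the log2 normalized intensity on the horizontal axis, fetal pools of 6 in blue and maternal pools of 6 in red. Cox6b2 and Cox7a1 have the widest gaps on the fetal side and Uqcrb on the maternal side; distances between different genes carry no meaning, since each has its own probe.

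Several regulators of these genes had larger ratios. Ppargc1a, the coactivator PGC-1 alpha that fasting induces and that drives mitochondrial genes, was 0.96, 0.59 and 0.29 in the fetus (mean 0.61 ± 0.34, adjusted p = 0.0287) and 1.32 and 1.15 on the maternal arrays. Its relative Ppargc1b was 1.85 and 2.15 in the mother and 0.18, 0.50 and -0.069 in the fetus, where it did not pass. Esrra, the nuclear receptor ERR alpha through which both coactivators act, fell in the fetus (mean -0.32 ± 0.13, adjusted p = 0.0242) and was 0.62 and 0.95 in the mother. Of 15 regulators measured, 4 rose and 3 fell in the fetus (median 0.083) and 4 were over 1.5-fold higher and 0 lower in the mother (median 0.33). Of all genes, 11.4% rose and 14.2% fell in the fetus and 3.01% were higher and 3.87% lower in the mother.

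The other one in the mother was Myc, a growth regulator, at 1.46 and 1.92, which also rose in the fetus (0.60 ± 0.029, adjusted p = 0.00493). Nrf1, the factor whose sites are common in subunit promoters, rose in the fetus (0.37 ± 0.21, adjusted p = 0.036) and was 0.18 in the mother. The mitochondrial DNA polymerase gene Polg fell in the fetus (mean -0.74 ± 0.14, adjusted p = 0.00602), and so did Yy1 (mean -0.40 ± 0.25, adjusted p = 0.0462). Gabpa and Tfam, an activator of subunit genes and the packaging factor of mitochondrial DNA, gave no call, with fetal means of 0.0074 ± 0.078 and -0.098 ± 0.068. Under the assumed maternal spread, the difference between mother and fetus passed for Ppargc1b, Esrra and Myc, at 1.80 (adjusted p = 0.0258), 1.11 (adjusted p = 0.0219) and 1.09 (adjusted p = 0.0114).

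**Figure D5:**
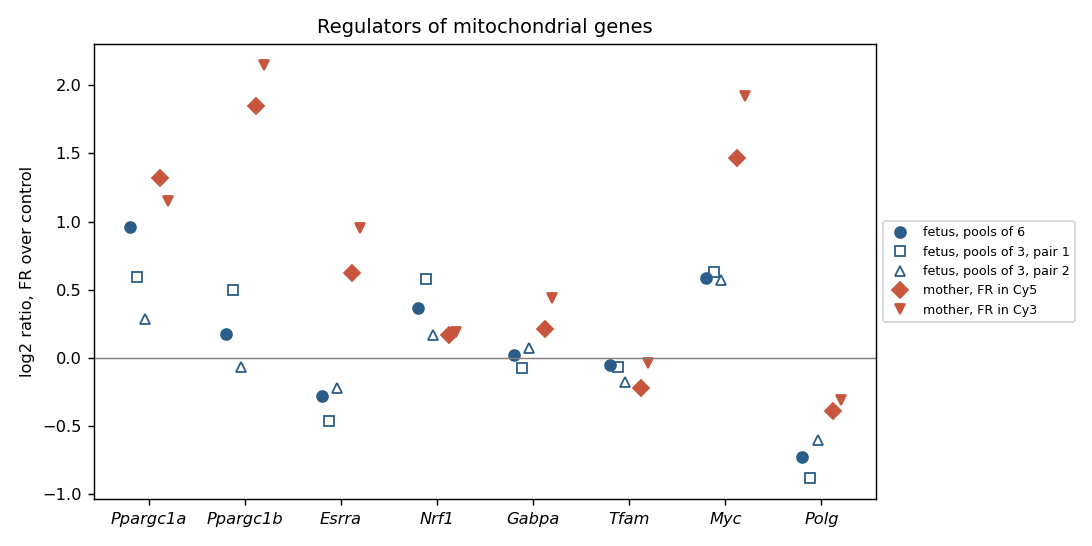
Log2 ratios of FR over control (vertical axis) for 8 regulators of mitochondrial genes, with the 3 fetal pool pairs in blue and both maternal arrays in red. The maternal arrays of Ppargc1b stand at 1.85 and 2.15, above all fetal pairs, and Esrra lies below 0 in the fetus and above it in the mother.

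Promoters are shown because several of these regulators bind short DNA words near the start of subunit genes. Of the 85 genes, 69 matched a promoter in the RefSeq table (GRCm38.p6), taken from 250 bases before to 50 after each listed start. The NRF1 word GCATGCGC, searched on both strands as were all, was in 10 of the 69 (14.5%, against 3.05% of 27025 genes), the GABPA and ETS core CCGGAAG in 16 (23.2% against 9.93%), and the YY1 word AAGATGGCG in 8 (11.6% against 1.64%). The ERR word TCAAGGTCA was in 2 (2.9% against 0.466%) and the CRE core TGACGTCA in 4 (5.8% against 2.03%). None of the words overlaps another in the stretches below, and a match is letters only, not a site. The upstream 250 bases follow for the highest maternal and lowest fetal member (Cox7a1), the lowest maternal member (Ndufs8) and Sdhb, which holds 2 of the words in its full window, as many as Cox6a1, and 1 of them in the stretch shown. Atp5l and Atp5j, complex V members that moved in opposite directions in the fetus, were added after their values were seen. All run 5′ to 3′ on the gene's strand, and capitals mark a word.
Cox7a1, chr7:30183921-30184170, plus strand: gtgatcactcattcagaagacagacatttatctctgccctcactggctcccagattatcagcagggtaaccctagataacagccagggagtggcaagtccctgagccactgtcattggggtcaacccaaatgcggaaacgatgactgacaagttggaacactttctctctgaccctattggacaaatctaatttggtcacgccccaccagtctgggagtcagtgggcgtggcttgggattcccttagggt
Ndufs8, chr19:3912775-3913024, minus strand: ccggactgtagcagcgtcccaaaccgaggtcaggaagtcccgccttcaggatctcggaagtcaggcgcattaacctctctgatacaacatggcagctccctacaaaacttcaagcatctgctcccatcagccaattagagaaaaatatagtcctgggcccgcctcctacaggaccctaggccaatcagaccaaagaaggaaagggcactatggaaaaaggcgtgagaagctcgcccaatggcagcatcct
Sdhb, chr4:140961021-140961270, plus strand: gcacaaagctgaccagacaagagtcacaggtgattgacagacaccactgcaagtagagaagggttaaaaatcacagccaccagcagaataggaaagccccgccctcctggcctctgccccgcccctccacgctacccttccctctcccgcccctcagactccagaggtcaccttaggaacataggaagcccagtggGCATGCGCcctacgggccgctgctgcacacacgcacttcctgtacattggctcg
Atp5l, chr9:44920743-44920992, minus strand: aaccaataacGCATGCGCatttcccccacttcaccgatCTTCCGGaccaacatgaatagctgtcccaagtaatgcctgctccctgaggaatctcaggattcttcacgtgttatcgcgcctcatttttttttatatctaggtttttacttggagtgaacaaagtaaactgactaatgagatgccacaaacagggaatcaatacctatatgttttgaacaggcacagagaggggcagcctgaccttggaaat
Atp5j, chr16:84834977-84835226, minus strand: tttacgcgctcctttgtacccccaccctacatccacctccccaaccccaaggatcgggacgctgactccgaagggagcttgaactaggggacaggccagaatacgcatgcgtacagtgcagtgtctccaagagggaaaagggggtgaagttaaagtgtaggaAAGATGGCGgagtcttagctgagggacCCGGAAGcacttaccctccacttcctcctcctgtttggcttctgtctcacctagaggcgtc

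In these stretches Sdhb holds the NRF1 word 54 to 47 bases before the start. Atp5l holds the NRF1 word 240 to 233 and the ETS core 212 to 206 bases before it, and Atp5j the YY1 word 88 to 80 and the ETS core 61 to 55. The ETS core is in both Atp5l (0.28 in the fetus) and Atp5j (-0.24), which were picked for their opposite directions. A link between any of the words and the direction of change was not tested. The stretches shown for Cox7a1 and Ndufs8 hold none of the 5 words. The full windows, with the 50 bases after the start, hold the ETS core in Ndufs8 and in Sdhb too.

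Other genes of the pathway were read from lists written with results of these data known. Of 38 assembly factors, 6 rose and 7 fell in the fetus (34.2% in all, against 25.6% of all genes) and 2 were higher in the mother (5.26% against 3.01%). Those that rose were led by Cmc1, a complex IV chaperone (0.47 ± 0.066), Coa6, a copper-handling factor of complex IV (0.41 ± 0.046, array name 1810063B05Rik), and Sdhaf1, of complex II (0.35 ± 0.046). Those that fell were led by Coa3, of complex IV (Ccdc56 on the array, -0.45 ± 0.14), Bcs1l, which inserts the iron-sulfur protein of complex III (-0.42 ± 0.13), and Lyrm7, its partner (-0.30 ± 0.089). In the mother Ndufaf4, a complex I assembly factor, was 0.85 and 1.03, and Coa6 0.69 and 0.70. The mean over all probes of Coa6 was -0.14 in the fetus, and without non-uniform spots its maternal value was -0.45.

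Of 14 genes for electron carriers and ubiquinone synthesis, 2 rose and 1 fell in the fetus (21.4% in all, against 25.6% of all genes). They were Coq7 (0.53 ± 0.13), Pdss1 (0.51 ± 0.040) and Coq4 (-0.27 ± 0.12). Cytochrome c, Cycs, did not pass at -0.23 ± 0.15 (adjusted p = 0.0647) and was 0.25 and 0.54 in the mother. Coq10b, which binds ubiquinone, was over 1.5-fold higher in the mother, at 0.90 and 1.06. Of 16 genes of the citric acid cycle and pyruvate dehydrogenase, Suclg2 (0.37 ± 0.022) and Dld (0.22 ± 0.042) rose in the fetus (12.5%, against 25.6% of all genes called), and none was called in the mother. Of 4 further proteins of the complexes or their assembly, outside the name pattern (Ndufab1, Usmg5, the copper chaperone Cox17 and the ATP synthase inhibitor Atpif1), Ndufab1, the acyl carrier protein of complex I, fell (-0.22 ± 0.046, adjusted p = 0.0284). That is 25% of these 4, against 25.6% of all genes called.

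The mitochondrial ribosome, which makes the subunits encoded in mitochondrial DNA, had 14 of 75 genes higher and 11 lower in the fetus (33.3% in all, against 25.6% of all genes) and 0 higher and 3 lower in the mother (4% lower against 3.87%). The highest fetal ones were Mrpl2 (0.34), Mrpl20 (0.31) and Mrps23 (0.30) and the lowest Mrpl14 (-0.45), Mrps25 (-0.44) and Mrpl1 (-0.38). Mrps25, Mrps6 and Mrpl50 were those lower in the mother, with Mrps25 at -1.17 and -0.84 and means of -0.85 and -0.73 for the others. The 4 mitochondrially encoded subunits on the array had fetal means between -0.27 (ND4, complex I) and -0.20 (CYTB, complex III) with COX2 of complex IV at -0.22 and ATP6 of complex V at -0.23, none past the threshold. In the mother each of the 4 was above 0 with FR in Cy5 and below 0 with FR in Cy3.

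Cell type markers were read in the same fetal samples, where 11.4% of all genes rose and 14.2% fell. Of 9 hepatocyte markers 1 rose and 5 fell (median -0.31), of 9 B lineage markers 7 fell (median -0.81) and of 11 granulocyte markers 8 fell (median -0.66), while of 10 erythroid markers 1 rose and 1 fell (median 0.28). In that order 66.7%, 77.8%, 72.7% and 20% of the lists were called, against 25.6% of all genes. The mean log2 level of the granulocyte list ran from 14.1 to 14.4 in control and from 13.2 to 13.6 in FR fetal RNA. The other lists had 1 higher and 3 lower of 10 Kupffer cell and macrophage, 3 lower of 8 endothelial, 2 lower of 5 megakaryocyte, 2 lower of 6 stellate cell, 2 lower of 5 bile duct, 1 higher of 3 pancreas and 1 higher and 1 lower of 4 fetal hepatocyte markers. These short lists had between 33.3% and 50% called, against 25.6% of all genes. In the mother, 4 of 7 erythroid markers were lower and 1 higher by 1.5-fold on both arrays, and 3 of 6 stellate cell, 2 of 10 Kupffer cell and macrophage, 1 of 9 hepatocyte, 1 of 8 endothelial and 1 of 7 granulocyte markers were lower. Of the fetal hepatocyte and the megakaryocyte markers, 1 of 4 each was higher, and no B lineage, bile duct, muscle or pancreas marker was called. Over all genes, 3.01% were higher and 3.87% lower in the mother. The part of these shifts in the values of the subunit genes was not tested.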

How the data were processed

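RNA from pooled livers was measured on 8 two-colour Agilent mouse arrays on 2 slides. Per the file headers, the authors read the spots with Agilent Feature Extraction 9.5.3.1 on slide 1 and 11.0.1.1 on slide 2, and the submitters' processing notes name 9.5.3.1. The deposited scanner files give the intensity of each spot on a linear scale. The deposited value tables hold the log10 ratio of processed red over green intensity, which was recomputed from the scanner files and is not turned for dye. Groups and dyes were taken from the sample titles and channels. The free-text descriptions also mention rat hippocampi and a second pool for some mouse liver arrays, and the titles were followed. Probe positions are those of the slide 1 annotation (mm9).

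From the intensities (mean signal on slide 1, median on slide 2, where no mean was used), background was corrected by normexp with an offset of 50 and ratios were normalized by loess within each array in limma 3.58.1 (R 4.3.3), with control spots at weight 0. Log2 ratios were turned to FR over control, and the authors' dye-exchanged arrays were averaged to 1 replicate. Population-outlier spots were dropped, and no member spot was one. Probes were kept where all arrays of the comparison gave signal well above background for at least 1 diet, and the brightest passing probe stood for its gene. Fetal ratios were tested against 0 with limma and Benjamini-Hochberg adjustment over all genes (adjusted p under 0.05). The mother, with 1 pool pair, was called at 1.5-fold on both arrays with no test. Control levels are single-channel log2 values after Aquantile scaling on slide 1. The statistics were tested on simulated data.

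The members and lists were chosen with earlier results of these data known. Genes are named as the highest and lowest called (or otherwise highest and lowest) of each complex in each comparison, well-known core subunits, isoform pairs, the 5 largest differences each way, the pattern matches that are no subunits, and up to 3 called genes each way of each list. Atp5g2, Atp5g3, Uqcrh, Alb and the per-pair values of Myl1 were added after their values were seen. Alternatives changed the offset, the normalization, the signal, the spot and probe filters, the probe rule, the dye, the slide, the fold and the pools left out. Promoters are from RefSeq (GRCm38.p6). Proteins were not used here, and the values of 1 member are not reported by name.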

Additional observations from a re-analysis of the deposited data

Results flagged for a closer look

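For 7 of 165 pathway genes that are not members (4.24%, near the 4.18% of all genes), the response to FR differed between mother and fetus in limma, where the lone maternal pair is assumed to vary like the fetal ones and has no measured spread of its own (maternal minus fetal, log2). The largest was Ppargc1b at 1.80 (adjusted p = 0.0258), kept in 11 of 14 alternatives. Esrra was 1.11 (adjusted p = 0.0219), kept in 11 of 13, with all fetal pairs below 0 and both maternal arrays above it. Myc was 1.09 (adjusted p = 0.0114), kept in 11 of 14. Coq10b was 0.89 (adjusted p = 0.0246) and Ndufaf4 0.66 (adjusted p = 0.0475), kept in 10 of 14 and 6 of 13. The response was lower in the mother for Acad9, a complex I assembly factor, at -0.76 (adjusted p = 0.0287; fetal mean 0.059, maternal -0.70), and Suclg2 at -0.69 (adjusted p = 0.0281; fetal mean 0.37, maternal -0.32), kept in 9 and 8 of 13.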

How the results depend on the processing

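The fetal count of 10 members was 0 to 5 when 1 pool pair was left out, 3 with slide as a term, 1 without loess, 3 with processed signals, 0 with scaling between arrays and 2 without non-uniform spots, and stayed within 1.5 times under the other 7 of 15 alternatives. Of all genes, 0% to 24.4% passed with a pair left out, 10.5% with slide as a term and 14.1% without loess. The share was 27.2% with processed signals, 0% with scaling and 13.2% without non-uniform spots, against 25.6% in the main fit. Each fit of 1 dye alone called 13 members, of which 6 were among the 10. Atp5b, Cox6a1 and Atp5g3 passed in both of these fits, with opposite signs. The maternal count of 0 was 7 with FR in Cy5 alone, 4 with FR in Cy3 alone, 5 at a log2 ratio of 0.322 and 1 with processed signals. As shares of members these are 8.43%, 4.82%, 6.02% and 1.2%, against 11.3%, 10.8%, 17.2% and 12.1% of all genes. The count of 0 for the difference was 2 without a filter, 2 with FR in Cy3 alone, 2 with processed signals, 1 with an offset of 10 and 0 to 1 when a fetal pair was left out. The count of 11 for control levels was 3 at 2-fold, 23 at a log2 difference of 0.322 and 1 without non-uniform spots, where 15 members were measured. As shares of members these are 3.61%, 27.7% and 6.67%, against 17.6%, 49.3% and 23.5% of all genes. The fetal median was -0.0028 to 0.021 with 1 pair left out, -0.11 without loess and -0.044 with processed signals, and the maternal one 0.090 with FR in Cy3 alone. Over the mean of its probes Ndufb8 was -0.044 and Coa6 (1810063B05Rik) -0.14 in the fetus, and without non-uniform spots Coa6 was -0.45 in the mother. Among the 15 fetal alternatives the call was kept in 13 for Cox6a2, 10 for Uqcr10 and 3 for Ndufs5. Apart from the settings that leave out samples or spots, the cause was not tested. Slide as a random block was not run, because the correlation could not be estimated from 3 pairs, and with slide 1 as the only fetal value there is no test and no count. No paired analysis was possible because each array already holds both diets and the test is of their ratio, and the mother has 1 pool pair, so replicate numbers pair nothing between groups. Precision is limited by 3 fetal pairs and 1 maternal pair. On every array both dyes gave signal well above background for 114 to 117 of 119 probes, but most member spots of slide 1 were marked non-uniform.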
